A study of Mus musculus with 6 samples.

Results

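Some genes of mammals descend from the gag gene of ancient retrotransposons, the part that encodes the capsid of a retrovirus-like particle. A set of 8 of them was examined here in Hepa1-6 cells, an established mouse hepatoma line. The set held 4 genes of the PNMA family (Pnma1, Pnma2, Pnma3 and Pnma5) and 4 relatives of other origin within the same class of elements (Peg10, Rtl1, Ldoc1 and Arc). These 8 genes were taken by name from the 25078 genes of the deposited tables, and all 8 were found there. The set was proposed with earlier results of these data in view, in which Pnma5 stood out in the comparison of midnolin knockdown with scr control. The values of that comparison are therefore given for the 8 genes as a description, without a test.

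RNA-seq after ribosomal RNA depletion covered 6 libraries of Hepa1-6 cells, which derive from a hepatoma of the mouse strain C57/L. One library came from parental cells without treatment (wt, n = 1), 2 from cells transduced with a lentivirus that carried a scramble vector (scr 25-2 and scr 50-1), and 3 from cells transduced with a midnolin shRNA vector (knockdown 25-3, 50-2 and 50-5). Transduced cells were selected with puromycin, and colonies grown from single cells were isolated by limiting dilution, so the scr and knockdown cells share transduction, selection and cloning, whereas the label of the wt cells names no treatment. The titles of the knockdown libraries write KO, while the treatment label names an shRNA vector, and the labels do not say which clone each library came from or what 25 and 50 stand for. With 2 scr libraries and 3 knockdown libraries, a p-value measures only the spread between these libraries, and a clone and its vector cannot be told apart.

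Gag-derived genes lost the ability to move through the genome but kept parts of the capsid protein. Arc, an immediate early gene of neurons needed for lasting memory, still forms capsids that carry RNA between cells. The PNMA proteins were first found as neuronal antigens of patients with paraneoplastic neurological disease, and the genes are known mainly from brain and gonads. Peg10 and Rtl1 are imprinted genes, expressed from the paternal copy and required in the placenta, and Ldoc1 regulates endocrine cells of the placenta. In the liver, these genes are best known from tumors, since PEG10 is often raised in human hepatocellular carcinoma and forced expression of Rtl1 gives rise to liver tumors in mice.

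The 8 genes lie on 5 chromosomes of mm10, and 3 of them, Pnma3, Pnma5 and Ldoc1, lie on the X chromosome. Pnma5 (chrX:73033981-73037103, minus strand) and Pnma3 (chrX:73064787-73068191, plus strand) are neighbours, with 27683 bases between them. In the GENCODE M21 annotation of GRCm38, the coding part lay within 1 exon in every coding transcript of 7 of the 8 genes, and in 2 of the 3 coding transcripts of Peg10. The longest coding part ranged from 453 bases in Ldoc1 to 5232 bases in Rtl1, and that of Pnma5 was 1854 bases.

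RefSeq windows upstream of the annotated start were at hand for 4 of the 8 genes. The windows of Pnma5, of its neighbour Pnma3 and of Pnma1 are shown because they differ in the number of CG dinucleotides, at which DNA of mammals can be methylated. Each is the 250 bases before the start in GRCm38.p6, printed 5′ to 3′ on the strand of the gene, with every CG in capitals. The coordinates are chrX:73037104-73037353 for Pnma5, chrX:73064537-73064786 for Pnma3 and chr12:84148490-84148739 for Pnma1.
Pnma5: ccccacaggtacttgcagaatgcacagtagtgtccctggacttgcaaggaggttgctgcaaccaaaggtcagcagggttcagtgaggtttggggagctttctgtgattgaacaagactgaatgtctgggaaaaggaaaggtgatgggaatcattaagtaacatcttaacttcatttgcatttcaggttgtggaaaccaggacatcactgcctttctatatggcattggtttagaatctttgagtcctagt
Pnma3: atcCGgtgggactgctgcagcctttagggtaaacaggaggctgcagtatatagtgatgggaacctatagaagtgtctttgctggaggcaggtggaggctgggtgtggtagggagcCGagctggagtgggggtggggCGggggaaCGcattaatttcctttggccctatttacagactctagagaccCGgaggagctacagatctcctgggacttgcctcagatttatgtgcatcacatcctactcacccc
Pnma1: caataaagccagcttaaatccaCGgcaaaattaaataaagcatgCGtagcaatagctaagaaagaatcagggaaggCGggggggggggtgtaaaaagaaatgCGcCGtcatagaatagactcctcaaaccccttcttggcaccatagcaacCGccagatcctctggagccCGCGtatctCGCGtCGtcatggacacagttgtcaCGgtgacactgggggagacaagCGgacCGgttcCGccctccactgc

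The Pnma5 window held 0 CG dinucleotides and had a GC content of 44.8%. Of 32851 upstream windows of this length in the RefSeq table, 7.87% held none. The Pnma3 window held 5, the Ldoc1 window 12 and the Pnma1 window 15, against a median of 6 over all windows. The RefSeq gene model of Pnma5 in GRCm38.p6 runs to base 73039721, past the start used in the deposited tables, so the printed window lies within that longer model. A further start upstream was not examined, and DNA methylation was not measured in these cells.

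**Figure D1:**
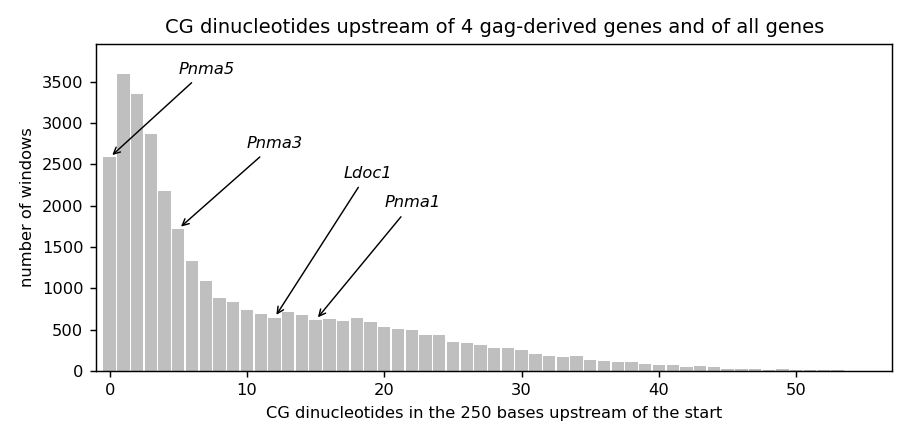
Number of CG dinucleotides in the 250 bases upstream of the annotated start (x axis) against the number of RefSeq windows in GRCm38.p6 with that count (y axis, 32851 windows in all). Arrows mark the 4 genes of the set with a window, from Pnma5 at 0 to Pnma1 at 15.

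Between 25586301 and 33119710 reads were counted on genes per library, and Rn45s took 10.1% to 13.1% of them. Midn, the targeted gene, had an RPKM (read counts scaled by the authors for exon length and TMM-adjusted library size) of 59.6 and 50.8 in the scr libraries and of 20.3, 21.8 and 22.1 in the knockdown libraries. The log2 fold change was -1.38 with an SE of 0.133 and a Benjamini-Hochberg FDR of 0.00777 in edgeR's quasi-likelihood test, and the FDR was 0.0525 without knockdown 50-2. Among 10 hepatocyte genes in the tables, Serpina1a was at 0 counts in all 6 libraries, and the summed RPKM lay between 2392 and 3541 in scr, between 130 and 729 in knockdown, and at 4130 in wt. Alb and Afp carried most of this sum in wt and scr. Other members did not follow it, since Apob had an RPKM of 3.00 and 1.07 in scr against 52.2, 37.8 and 4.37 in knockdown (FDR 0.0822, edgeR), and Hnf4a had 33.9 and 11.0 against 65.5, 65.4 and 29.6 (FDR 0.206). Of the 8 hepatocyte genes tested, 3 had a higher and 5 a lower fitted level, and 1 was called (12.5%, against 10.6% of all genes tested). It was Ttr, a plasma carrier of retinol and thyroid hormone (log2 fold change -6.68, FDR 0.0121, edgeR). Without knockdown 50-2 the log2 fold change of Ttr was -6.48 (FDR 0.0780, edgeR). Whether these liver transcripts have a part in the values of the gag-derived genes was not tested.

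Pnma5 was the only gene of the 8 with an RPKM over 1 in any library, against 46.4% of all genes. It had 0 counts in scr 25-2 and 2 counts in scr 50-1. It had 6141 counts in knockdown 25-3, 7566 in knockdown 50-2 and 4581 in knockdown 50-5. In wt it had 43 counts. The knockdown libraries were thus far above every other library, wt lay between the groups, and the groups did not overlap.

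Per length, the RPKM of Pnma5 was 85.0, 102 and 60.5 in the knockdown libraries 25-3, 50-2 and 50-5, a mean of 82.6 ± 21.0 (SD, n = 3 libraries). This level was above the 21.4 ± 0.982 (SD, n = 3) of Midn on the same scale in the same libraries. By RPKM, Pnma5 ranked 650, 503 and 1029 among the 25078 genes in these 3 libraries, within the upper 4.10% in each. In wt it had an RPKM of 0.721 and ranked 11098. The scr values, 0 and 0.0307, were at or under the RPKM that 3 counts would give there (0.0446 and 0.0460), which is the limit that a count of 0 allows.

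Because the scr libraries together held 2 counts, the ratio to scr has a wide counting interval. Summed over libraries, Pnma5 was 5461-fold higher in knockdown than in scr (95% exact interval 1512 to 45096), where the interval covers counting error only and not the differences between clones. The parental library had 47.8-fold more than scr (95% exact interval 12.4 to 407). Knockdown was 114-fold higher than wt (84.8 to 158), and the ratio to wt was 118 for knockdown 25-3, 142 for 50-2 and 83.9 for 50-5. A level of 43 counts in a bulk library of wt cells can come from few cells with much of the transcript or from many with little, and these cannot be told apart, as fewer expressing cells and less RNA per cell cannot in any of these libraries.

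Among the 3 knockdown libraries, Pnma5 was 1.69-fold higher in 50-2 than in 50-5, 1.20-fold higher in 50-2 than in 25-3 and 1.40-fold higher in 25-3 than in 50-5. Midn spread less over the same libraries, with a coefficient of variation of 4.59% against 25.4% for Pnma5. From high to low, the 6 libraries were ordered knockdown 50-2, 25-3 and 50-5, wt, scr 50-1 and scr 25-2, the last of which held 2 and 0 counts, within counting error of each other.

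**Figure D2:**
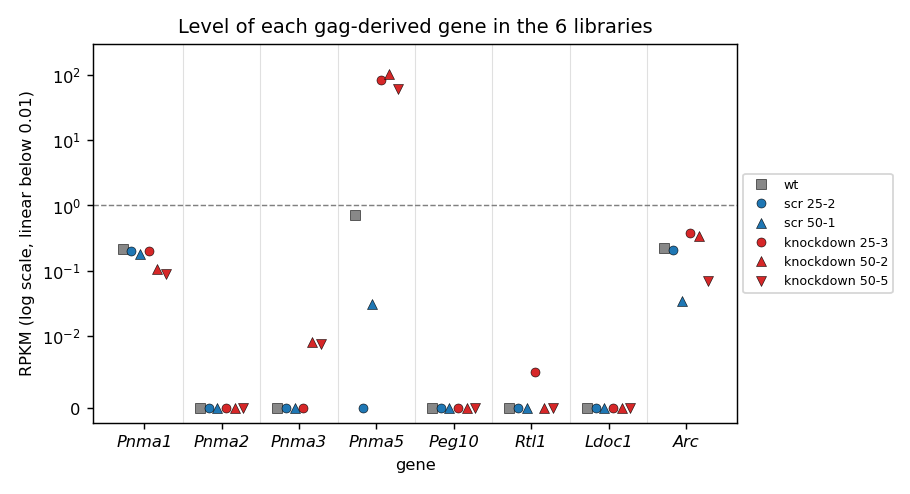
RPKM of the 8 gag-derived genes (y axis, log scale, linear below 0.01) in each of the 6 libraries, with wt as a grey square, scr in blue and knockdown in red, and a dashed line at an RPKM of 1. The knockdown values of Pnma5 (60.5 to 102) are the only points above the line, and Pnma2, Peg10 and Ldoc1 are at 0 in every library.

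The other PNMA genes did not share this level. Pnma1, which promotes cell death in neurons, was at trace level, with 13 counts in wt, 14 and 12 in the scr libraries, and 15, 8 and 7 in the knockdown libraries. Its RPKM was 0.190 ± 0.0163 (SD, n = 2) in scr and 0.132 ± 0.0605 (SD, n = 3) in knockdown, and the groups overlapped. Pnma2, which forms capsids outside cells and is a target of antibodies in paraneoplastic encephalitis, had 0 counts in all 6 libraries. Pnma3, the neighbour of Pnma5, had 1 count each in knockdown 50-2 and 50-5 and 0 in the other libraries, which is under the limit that a count of 0 allows.

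Of the remaining genes, Peg10 and Ldoc1 had 0 counts in all 6 libraries. For the long transcript of Peg10, 3 counts would be an RPKM of 0.0136 in knockdown 50-5. Rtl1 had 1 count, in knockdown 25-3. It overlaps 8 other annotated genes, 7 of them on the other strand, which include microRNA genes and an antisense transcript, and the strand and mode of the counting are not stated, so its reads could have been left out as ambiguous. These 8 overlapping genes had 0 counts in all 6 libraries as well, and the other 7 genes of the set overlap no other gene of the tables.

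Arc, the capsid-forming gene of neuronal synapses, had 18 counts in wt. It had 19 in scr 25-2 and 3 in scr 50-1, whereas the knockdown libraries 25-3, 50-2 and 50-5 had 37, 34 and 7. The library with the lowest count of each transduced group, scr 50-1 and knockdown 50-5, had under 10 counts, and the groups overlapped. Its mean RPKM was 0.123 ± 0.125 (SD, n = 2) in scr and 0.265 ± 0.171 (SD, n = 3) in knockdown. Of the 13 other immediate early genes listed, 5 also had their lowest RPKM in both of those libraries within their group (Fos, Fosb, Junb, Egr1 and Egr2), 1 had its highest in both (Dusp1, a phosphatase gene), and 7 had neither, among them Egr3 at 0 counts throughout. Over all genes tested, 17.9% had their lowest and 18.3% their highest level in both of those libraries. Egr1, a transcription factor, had 29.8 in scr 25-2 and 14.6 in scr 50-1, whereas the knockdown libraries in the same order had 16.0, 17.7 and 3.62. For Dusp1 it was 15.3 and 25.4 in the scr libraries and 45.0, 38.4 and 69.3 in the knockdown libraries. Over the immediate early list without Arc, 10 genes were tested and 1 was called (10.0%, against 10.6% of all genes). This was Nr4a1, a nuclear receptor, with an RPKM of 3.51 and 4.30 in scr and of 8.60, 7.50 and 8.32 in knockdown. Its log2 fold change was 1.05 (SE 0.191, FDR 0.0291, edgeR quasi-likelihood test). Without any 1 knockdown library it was not called, with an FDR between 0.0916 and 0.110, nor with the label number 25 or 50 as a term (FDR 0.0577). The log2 fold change stayed between 1.00 and 1.12 in these fits.

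In the comparison of 3 knockdown with 2 scr libraries, 11577 genes had an RPKM over 1 in at least 1 of them and were tested, and 1230 were called at an FDR under 0.05 and a fold change of at least 1.5 (10.6%, of which 625 up, 5.40%, and 605 down, 5.23%). Only Pnma5 of the 8 genes passed that filter, and only through the knockdown libraries, and the set was chosen on this contrast, so the outcome of the test for Pnma5 is not given. The other 7 genes did not reach the level needed for a test. Over all genes of the tables, 24.6% had 0 counts in every library and 40.1% had at most 3 in each, against 3 and 5 of the 8 genes.

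Further genes of retroelement origin, most of them from gag, were looked up from a list of 22 relatives, of which 16 were in the tables. They include Moap1, a PNMA gene that activates Bax in apoptosis, the Pnmal genes, Zcchc12 and Zcchc18, further members of the Rtl family, the skin protease gene Asprv1 and Nynrin. None of the 16 reached an RPKM of 1 in any library, 8 of them had 0 counts throughout, and 15 had at most 3 counts in each library. The exception was Asprv1, with 4 counts in scr 25-2 and 4 in knockdown 25-3. The summed RPKM of the 16 lay between 0.0188 and 0.124 in the scr libraries and between 0.0644 and 0.103 in the knockdown libraries. In an edgeR quasi-likelihood fit without the RPKM filter, 7 of them could be fitted and 0 were called (against 7.32% of all genes fitted). An unadjusted p under 0.05 was seen for 0 of the 7, against 4541 of the 18673 genes fitted. With at most 4 counts in any library, these 7 were too low for the fit to decide whether they changed. Rtl8a, Rtl8b and Rtl8c are near-identical copies whose reads may not be assigned to any of them, so their counts of 0 are uncertain. Genes of env origin, the envelope genes captured by mammals such as Syna in the placenta, were as low, with a highest summed RPKM of 0.0410 over the 3 that were in the tables.

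Of the 6 nearest genes of Pnma5, 3 could be tested and 0 were called, against 10.6% of all genes tested. On the side towards Zfp185, whose annotated end lies 2.44 kb from Pnma5, the 3 nearest genes were Mir2137, Zfp185 and Nsdhl. Zfp185, a cytoskeleton-associated protein gene, had an RPKM of 3.19 and 1.14 in scr and of 1.25, 1.47 and 1.14 in knockdown (log2 fold change -0.77, SE 0.453, FDR 0.301, edgeR quasi-likelihood test). Nsdhl, an enzyme of cholesterol synthesis, had 17.4 and 44.4 in scr and 19.9, 15.1 and 13.7 in knockdown (log2 fold change -0.94, SE 0.396, FDR 0.172). Mir2137 had at most 2 counts in any library.

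On the other side lay Pnma3, Xlr4a and Xlr3a. Xlr3a, of a family of X-linked genes with several near-identical copies, had an RPKM of 2.06 and 2.66 in scr and of 1.29, 1.03 and 1.06 in knockdown (log2 fold change -1.08, SE 0.291, FDR 0.0688, edgeR quasi-likelihood test). It was called in 2 of the 14 alternatives. Xlr4a had 1 and 6 counts in scr and 1 in each knockdown library. The 3 neighbours that could be tested all had a negative log2 fold change, as did 50.9% of all genes tested. Those of Zfp185 and Nsdhl depended on single scr libraries. For Zfp185 the log2 fold change was 0.17 without scr 25-2 (FDR 0.728, edgeR) and -1.32 without scr 50-1, when it was called (FDR 0.0386), and for Nsdhl it was -1.45 without scr 25-2, when it was called (FDR 0.0141), and -0.11 without scr 50-1 (FDR 0.787).

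**Figure D3:**
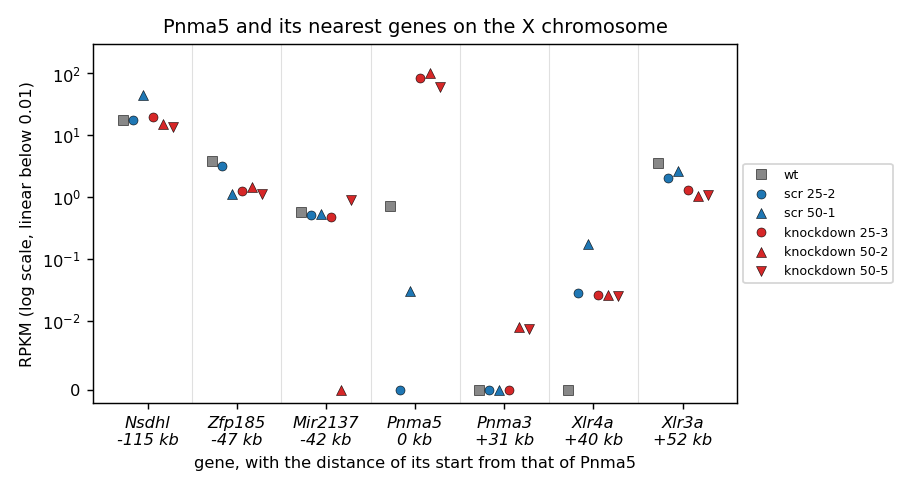
RPKM (y axis, log scale, linear below 0.01) of Pnma5 and of the 3 nearest genes on each side, in order along the X chromosome, with the distance of each start from that of Pnma5 in kb, for wt (grey), scr (blue) and knockdown (red). Pnma5 is the only gene of the 7 whose knockdown values lie above all other libraries by more than 10 RPKM.

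The imprinted domains that hold Peg10 and Rtl1 were different from each other. In the Rtl1 domain, which carries the paternally expressed Dlk1 and the maternally expressed noncoding RNAs Meg3, Rian and Mirg, 4 of 6 listed genes had 0 counts in all 6 libraries, and Rian and Dio3 had 1 count each over the 6 libraries. In the Peg10 domain, Sgce, which shares a control region with Peg10, had at most 2 counts in any library, whereas Casd1, Pon2, Pon3 and Ppp1r9a had an RPKM over 1 in at least 1 of the compared libraries. These 4 could be tested, and 0 were called, against 10.6% of all genes. By the edgeR quasi-likelihood test, Pon3, a lactonase of liver, had an FDR of 0.0441 with a log2 fold change of -0.58, short of the fold change threshold. It was called with wt added to the controls (-0.65, FDR 0.0194) and without scr 25-2 (-0.66, FDR 0.0262). In the other 3, the FDR lay above the threshold. Ppp1r9a had an RPKM of 1.75 and 1.02 in scr and of 1.63, 1.18 and 0.385 in knockdown.

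DNA methylation and heterochromatin take part in silencing retroelements and in keeping 1 parental copy of imprinted genes silent. Most genes of this machinery were expressed. Of 30 listed genes 27 were tested, and 2 were called (7.41%, against 10.6% of all genes), 1 up and 1 down, with a median log2 fold change of -0.00039 beside -0.0097 over all genes tested. Dnmt1, which copies DNA methylation at replication, had an RPKM averaging 52.8 ± 2.54 (SD, n = 2) in scr, against 59.3 to 61.9 over the knockdown libraries (FDR 0.303, edgeR quasi-likelihood test). Trim28, the corepressor that zinc finger proteins bring to retroelements, had 129 and 139 in scr and 145, 119 and 123 in knockdown, and these overlapped.

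Morc3, which takes part in silencing endogenous retroviruses, was the gene called down. Its RPKM was 14.6 and 13.0 in scr, 8.17, 8.75 and 8.43 in knockdown and 14.5 in wt, a log2 fold change of -0.72 (SE 0.125, FDR 0.0259, edgeR quasi-likelihood test). Suv39h2, a histone methyltransferase of heterochromatin, was the gene called up, from 2.38 and 2.15 in scr to 5.23, 4.65 and 4.12 in knockdown (log2 fold change 1.03, SE 0.193, FDR 0.0307). In wt Suv39h2 had 3.99, nearer to knockdown than to scr. Without any 1 of the 3 knockdown libraries both lost the call, with an FDR between 0.0715 and 0.130. The log2 fold change stayed between -0.73 and -0.70 for Morc3 and between 0.94 and 1.11 for Suv39h2 in these fits. Without scr 50-1 that of Suv39h2 was 0.96. With the label number 25 or 50 as a term Morc3 lost the call at 0.0526 (log2 fold change -0.71). With wt added to the controls Suv39h2 lost it at 0.107, with a smaller log2 fold change of 0.72.

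Dnmt3a, the de novo methyltransferase, had 7.29 and 4.89 in scr and 2.57, 2.71 and 3.91 in knockdown. The means were 6.09 and 3.06, with an FDR of 0.0670 in the edgeR quasi-likelihood test, so it was not called. It was called with DESeq2 (FDR 0.00753), with wt added to the controls (FDR 0.0371, edgeR) and without scr 50-1 (FDR 0.0410, edgeR). Without scr 25-2 the log2 fold change was -0.67 (FDR 0.143, edgeR), against -1.26 without scr 50-1. Tet2, which oxidizes methylated cytosine, had 12.6 and 12.4 in scr and 7.24, 7.46 and 9.54 in knockdown (log2 fold change -0.64, SE 0.166, FDR 0.0635), and was called with DESeq2 (FDR 0.00735) and with wt added (FDR 0.0304). Zfp57, a zinc finger protein that protects imprints, had 32.2 and 28.0 in scr and 23.2, 23.0 and 20.6 in knockdown (FDR 0.0816), with 21.5 in wt. Pphln1, of the same list, went the other way, with 34.1 and 41.3 in scr and 54.6, 53.0 and 50.9 in knockdown. It was not called either (log2 fold change 0.47, FDR 0.0763, edgeR). Whether any of these levels has a part in the level of Pnma5 was not tested.

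**Figure D4:**
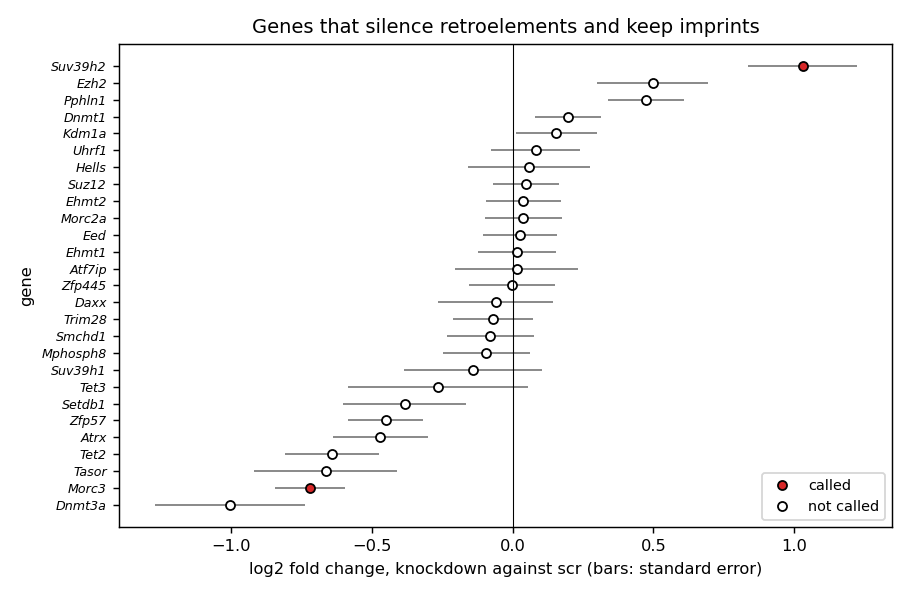
Log2 fold change of knockdown against scr (x axis) with its standard error (bars) for 27 genes of retroelement silencing and imprint maintenance, with the 2 called genes filled in red. Suv39h2 (1.03) and Morc3 (-0.72) are filled, and most of the others lie near 0.

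Markers of neurons, germline and trophoblast, where gag-derived genes are usually found, were low. The 13 neuron markers had a summed RPKM between 0.537 and 0.602 in scr and between 0.675 and 1.04 in knockdown, 0.302 in wt, and Stmn2, Nefl and Nefm were at 0 in every library. None passed the RPKM filter. Without it, 10 could be fitted and 1 was called by the edgeR quasi-likelihood test (against 7.32% of all genes fitted), Syt1, a calcium sensor of synaptic vesicles. Syt1 had 0 counts in both scr libraries, 93, 31 and 130 in the knockdown libraries and 2 in wt, and was at least 25.3-fold higher in knockdown, taking 3 counts per scr library as the limit. The other 12 neuron markers summed to an RPKM of 0.469, 0.490 and 0.254 in the knockdown libraries, below both scr libraries (0.602 and 0.537). Of 22 germline genes, 6 had 0 counts throughout, and the summed RPKM was 1.15 in wt and at most 0.794 in scr and 0.610 in knockdown. Of 9 trophoblast markers 4 were at 0, and the sum was 1.08 in wt and at most 0.392 in scr and 0.314 in knockdown.

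Markers of other cells that a culture could hold were checked as well. The 5 macrophage markers summed to an RPKM of 4.35 in wt, between 4.37 and 4.74 in scr, and between 9.12 and 14.1 in knockdown. Cd68 and Csf1r made up most of this sum, and both were tested and not called. None of the 5 was at 0 counts throughout, but Adgre1 had 1 count in wt, 0 and 4 in scr and 0 in all 3 knockdown libraries. Ptprc and Lyz2 had at most 30 counts in any library. The 5 endothelial markers summed to 2.95 in wt and to at most 0.248 in scr and 0.529 in knockdown. Pecam1 made up nearly all of the wt sum (RPKM 2.85), and Cdh5 had 0 counts there. Vwf went the other way, with 14 counts in wt and 44, 65 and 38 in knockdown. Of the 6 fibroblast markers, Dcn (RPKM 409 to 1028) made up nearly all of the sum in each library, and 2 were tested and 1 was called, against 10.6% of all genes. This was Pdgfra, a receptor for platelet-derived growth factor, called up (log2 fold change 3.10, SE 0.410, FDR 0.0140, edgeR quasi-likelihood test). In wt Pdgfra had an RPKM of 1.93, against 0.308 and 0.167 in scr and 1.58 to 2.70 in knockdown. The call was lost without knockdown 25-3 (log2 fold change 2.85, FDR 0.0559), without knockdown 50-2 (3.16, FDR 0.0701) and with wt added to the controls (log2 fold change 1.37, FDR 0.295), all in edgeR. The part of these markers in the Pnma5 values was not tested.

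Among the 11647 genes with an RPKM over 1 in any library, the 5 whose pattern was most like that of Pnma5 were named by the Pearson correlation of log2(RPKM + 0.1) over the 6 libraries, which share the same groups. They were Tff1 (r = 0.998), Cald1 (0.998), Nup62 (0.997), Manba (0.997) and Magi1 (0.996), on chromosomes 17, 6, 7, 3 and 6. Only Tff1, a secreted mucosal peptide, had a range like that of Pnma5. It had 0 and 1 counts in scr, 8 in wt and 856, 1244 and 1022 in knockdown 25-3, 50-2 and 50-5.

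The other 4 genes were expressed in every library and differed by 1.30-fold (Nup62) to 2.81-fold (Magi1) between the group means. Cald1, an actin-binding protein, had a mean RPKM of 42.6 in scr and 95.3 in knockdown, Manba, a lysosomal mannosidase, had 6.73 and 16.3, and Magi1, a scaffold of cell junctions, had 5.38 and 15.1. Nup62, a protein of the nuclear pore, had 19.6 and 25.5. With a pseudocount of 1 in place of 0.1, only Tff1 stayed among the 5, so the list depends on the scale. The order of the 6 libraries was that of Pnma5 in 1 of the 5 genes, Nup62, and in 59 genes in all besides Pnma5.

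**Figure D5:**
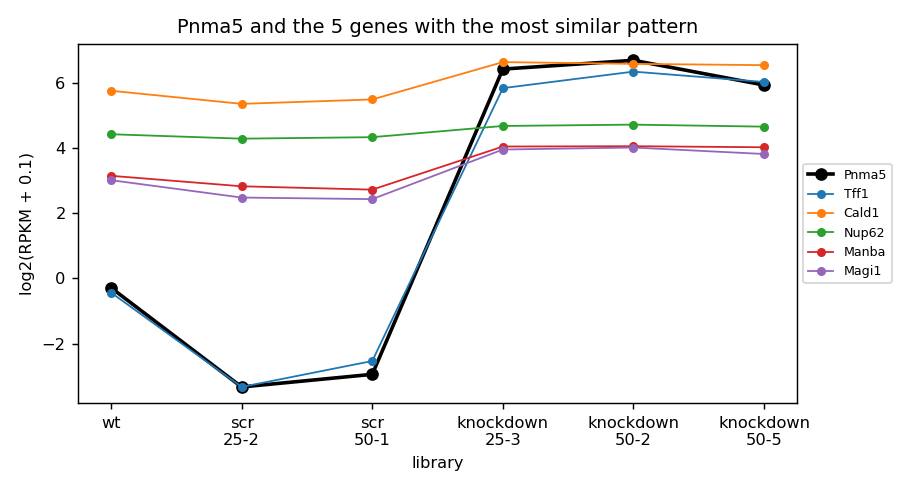
Level of Pnma5 (black) and of the 5 genes most correlated with it, as log2(RPKM + 0.1) on the y axis, in the 6 libraries on the x axis, where lines join the points of 1 gene and mark no order in time. Pnma5 and Tff1 move over a similar range, and the other 4 genes move in parallel over a much smaller one.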

How the data were processed

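Reads were placed on mm10 by the authors with TopHat2, and HTSeq gave the number per RefSeq gene of GRCm38. They deposited raw counts and RPKM values, the latter computed in edgeR with TMM-scaled library sizes, and each RPKM was checked to equal the count per kilobase divided by 1 constant per library. Whether the counting used strand is not given in the sources used here. Library columns were matched to samples by name, and 0 were left unmatched.

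The 8 genes and all gene lists were chosen with earlier results of these data known. The study's methods compare knockdown clones sh1 and sh2, which the labels do not identify, so all 3 knockdown libraries were compared with both scr libraries. Counts were tested with edgeR 4.0.16 in R 4.3.3 (quasi-likelihood test, TMM, Benjamini-Hochberg adjustment, called at an FDR under 0.05 and a fold change of at least 1.5) among genes with an RPKM over 1 in any compared library. Each SE was derived from the fold change and the F statistic. Ratios of Pnma5 used summed counts over TMM-scaled library sizes with exact (Clopper-Pearson) 95% intervals. The lower limit of detection was 3 counts per library.

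Alternatives were DESeq2 1.42.0, limma 3.58.1 (log2 of RPKM plus 0.1 or 1), other size factors and filters, wt as a further control, the label number as a term, and each library left out in turn. Replicates differed far beyond counting noise (chi-square per degree of freedom of 50.2 to 141), with a common biological coefficient of variation of 0.272. Genes named were the 8, those of the list of relatives and of the imprinted lists, called genes of other lists, the 5 genes most like Pnma5 and the 3 nearest on each side, besides Midn. Other genes of the lists, and Gabrq, were named after their values were seen. RefSeq and GENCODE M21 supplied sequences and gene models.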

Additional observations from a re-analysis of the deposited data

How the results depend on the processing

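The scr control rests on 2 libraries, and the number of genes called depended on the libraries and the test. It was 1230 with 3 knockdown and 2 scr libraries, 2322 with DESeq2, 807 with the 25 or 50 of the labels as a term, and between 131 (without knockdown 50-2) and 2273 (without scr 25-2) when 1 library was left out. The silencing genes called were 2, against 4 with DESeq2, 1 with the label number as a term, and 0 to 4 with 1 library left out. The 0 came from the edgeR fits without any 1 knockdown library. In those fits 6 or 7 of these genes had an unadjusted p under 0.05, as did 2483 to 2845 of all genes tested. In the main comparison 27 of these genes and 11577 of all genes were tested. The highest number with 1 library left out came from the fit without scr 50-1, which left 1 scr library. Midn stayed between -1.49 and -1.24 on the log2 scale with 1 library left out, and only without knockdown 50-2 did it miss the threshold. None of the listed relatives was called in any of the 14 alternatives, mostly because they were too low to be tested.

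The log2 ratio of summed Pnma5 counts was 12.41 and lay between 10.85 and 12.60 with 1 library left out, the lowest being a lower bound without scr 50-1, since scr 25-2 had 0 counts. With wt added to the controls it was 8.46. The mean knockdown RPKM of Pnma5 was 82.6 with or without TMM. The labels share the numbers 25 and 50 between groups without saying what they mark, so the fit with that number as a term, which gave the 807 genes above, is the nearest to a paired analysis.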

Other observations

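The 3 genes below, of which Ascl2 belongs to the trophoblast list and Sycp1 to the germline list, were picked after their values were seen and were at or near 0 counts in one transduced group. Gabrq, a subunit gene of the GABA receptor 191 kb from Pnma5 on the X chromosome, had 0 counts in wt and both scr libraries and 6, 11 and 7 in knockdown 25-3, 50-2 and 50-5, at least 2.39-fold above the limit of 3 counts per scr library (FDR 0.0532, edgeR quasi-likelihood test without the RPKM filter).

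Ascl2, an imprinted transcription factor of trophoblast, moved the other way in counts, with 40 in wt, 13 and 2 in the scr libraries and 0 in all 3 knockdown libraries (FDR 0.108, same fit). Sycp1, a meiotic chromosome protein, had 37 counts in wt, 12 and 1 in scr, and 0, 0 and 1 in knockdown (FDR 0.148, same fit). None of these 3 passed the test.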
